A study of Mus musculus with 6 samples.

Results

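Dab2 and the genes that work beside it in receptor uptake were examined in mammary epithelial cells (MECs). The set holds 9 genes of the 55487 in the count table: the adaptors Dab2, Dab1 and Dab2ip, the receptors Lrp1, Lrp2, Cubn and Sorl1, the cubilin partner Amn, and the motor Myo6. Dab2 was chosen because its counts differed between the genotypes in these same libraries, and the other 8 were listed by function with that result known. The difference of each of the 9 genes between genotypes is therefore given as a description, without a test.

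MECs were compared between 3 wild-type (WT) and 3 IL-21isoTg female mice, all BALB/c and 10 weeks old, with 1 poly(A)-selected library per mouse. IL-21isoTg mice express a membrane-bound isoform of the cytokine IL-21 in T cells, and WT mice carry no transgene. The promoter that drives the transgene is not given in the sources used here. The mice were virgin and their estrous stage was randomized. MECs were the cells that remained after magnetic beads had taken out leukocytes by CD45, endothelium by CD31 and fibroblasts by CD140a.

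The libraries held between 15902886 and 25719244 counts on genes. Levels are given as CPM (a gene's count relative to the library total, scaled between mice with edgeR's TMM method). A floor of 3 counts equalled between 0.112 and 0.280 CPM in the 6 libraries and covers counting error only. The epithelial marker Epcam stood at 674.4 to 1144 CPM, while Ptprc, which encodes CD45, stood at 2.16 to 9.40 CPM, Pecam1 (CD31) at 20.6 to 86.2 CPM and Pdgfra (CD140a) at 15.8 to 60.4 CPM, so transcripts of the removed cells were still present. A list of 19 genes typical of salivary glands took between 4.98% and 41.1% of the counts, with the highest share in IL-21isoTg mouse 3 (exact permutation test between genotypes, two-sided, p = 0.7). The smallest p that 3 against 3 mice allow in this test is 0.1. In such bulk libraries, fewer cells of a type and less RNA per cell cannot be told apart.

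Receptors of the LDL receptor family carry lipoproteins, proteases, vitamin carriers and other ligands into the cell. Their cytoplasmic tails hold short tyrosine motifs that are bound by adaptors with a phosphotyrosine-binding (PTB) domain, of which Dab2 is one. Dab2 links the receptor to clathrin and the AP-2 complex, and then to myosin VI, the motor that moves toward the minus end of actin filaments. Dab2 is best known in the kidney proximal tubule and the yolk sac, where it serves megalin (Lrp2) and cubilin (Cubn), and it is also known from macrophages and mesenchymal cells.

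Dab2 (ENSMUSG00000022150) has 14 annotated transcripts and spans bases 6299788 to 6440712 of chromosome 15 (GRCm38, plus strand). RefSeq places starts of the gene at 2 sites, and the windows from 250 bases before to 50 bases after each start (GRCm38.p6, plus strand) are shown because reads from both starts are added into the single Dab2 count. The capitals mark a match to TTCNNNGAA, the palindromic motif read by STAT proteins, which act downstream of IL-21 and prolactin among other cytokines.
Dab2 upstream start, chr15:6299539-6299838: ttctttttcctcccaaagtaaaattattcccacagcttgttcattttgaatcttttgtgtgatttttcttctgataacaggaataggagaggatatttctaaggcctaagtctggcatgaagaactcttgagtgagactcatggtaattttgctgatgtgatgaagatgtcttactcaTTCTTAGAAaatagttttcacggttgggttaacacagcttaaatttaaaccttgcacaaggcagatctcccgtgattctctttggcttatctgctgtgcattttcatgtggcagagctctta
Dab2 downstream start, chr15:6386498-6386797: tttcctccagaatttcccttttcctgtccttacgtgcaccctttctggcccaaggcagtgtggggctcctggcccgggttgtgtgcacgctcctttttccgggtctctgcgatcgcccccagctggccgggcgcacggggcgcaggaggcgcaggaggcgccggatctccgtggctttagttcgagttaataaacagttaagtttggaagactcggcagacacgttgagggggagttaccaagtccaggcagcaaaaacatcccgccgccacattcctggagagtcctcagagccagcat
The upstream window held 1 match, beginning 72 bases before the start, and the downstream window held 0. The windows also differed in base composition, with 37.7% G and C in the upstream one and 59.3% in the downstream one. All 9 genes were found in the RefSeq table, with 15 windows in all. Of these, 4 held the motif, 1 each for Dab2, Cubn, Lrp1 and Sorl1, and 8.30% of all 32851 windows of this length did. A match is a description of the letters only, and the share of Dab2 transcripts from either start was not measured.

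Dab2 was the gene of the set that separated the genotypes. Its level was 22.8, 17.5 and 17.9 CPM in the WT mice and 58.6, 63.3 and 53.3 CPM in the IL-21isoTg mice, from 365 to 505 and from 571 to 1701 counts. All 3 IL-21isoTg mice lay above all 3 WT mice, and the lowest IL-21isoTg mouse was 2.34 times the highest WT mouse. The means were 19.4 ± 2.92 CPM (SD, n = 3) and 58.4 ± 5.04 CPM (SD, n = 3), and the fitted log2 fold change was 1.59 with a standard error of 0.17. Dab2 was the 1 gene of the 9 whose groups did not overlap, where 12.1% of the 17165 genes that passed the filter on low counts did not (5.54% with IL-21isoTg higher and 6.54% with WT higher). Since Dab2 was chosen on this contrast, nothing is read from that count.

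Mice of the same genotype were close to each other in Dab2. The within-genotype SD of log2 CPM was 0.17, at percentile 15.7 of all genes tested, so most genes varied more from mouse to mouse. Choosing a gene on its genotype difference favours a small spread in the same mice, so nothing further is read from this percentile. The highest WT mouse stood 1.30 times above the lowest, and in IL-21isoTg MECs the same ratio was 1.19. IL-21isoTg mouse 3, the library with the largest salivary gland share, had the lowest Dab2 level of its genotype.

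**Figure D1:**
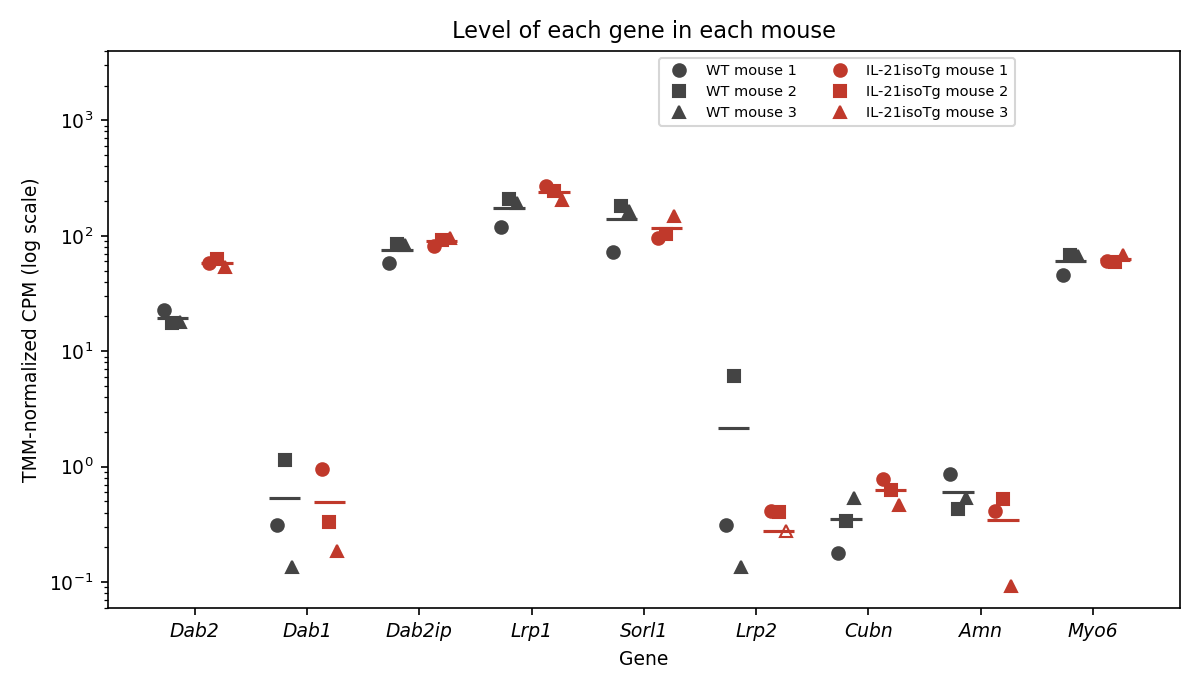
TMM-normalized CPM (log axis) of the 9 genes in each of the 3 WT mice (grey) and 3 IL-21isoTg mice (red), with a horizontal line at each genotype mean; the open symbol marks 0 counts of Lrp2, drawn at the level of 3 counts. The Dab2 points of the genotypes stand apart, at 17.5 to 22.8 and 53.3 to 63.3 CPM, while the points of the other 8 genes overlap.

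Dab1 (ENSMUSG00000028519, chromosome 4, 103619359 to 104744844, plus strand), the adaptor that carries the reelin signal from its lipoprotein receptors in neurons, was close to the limit of detection. It had 7, 24 and 3 counts in WT MECs and 23, 9 and 2 in IL-21isoTg MECs. These are levels of 0.135 to 1.15 CPM and 0.187 to 0.956 CPM, which overlap, and Dab1 did not pass the filter. Dab2 counts were at least 15 times those of Dab1 in every mouse. Per length of exon, the Dab2 to Dab1 ratio ran from 16.4 to 142.9 in WT MECs and from 66.0 to 307.5 in IL-21isoTg MECs.

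Dab2ip (ENSMUSG00000026883, chromosome 2, 35558266 to 35730994, plus strand), a Ras GTPase-activating protein named for its binding to Dab2, was expressed in every mouse. Its levels were 58.2, 84.3 and 83.3 CPM in the WT mice and 81.2, 91.2 and 96.4 CPM in the IL-21isoTg mice. The groups overlapped, and the log2 fold change was 0.25 with a standard error of 0.19. Per length, Dab2 stood at 0.24 to 0.45 of the Dab2ip level in WT MECs and at 0.63 to 0.82 in IL-21isoTg MECs. A transcript on the opposite strand, Gm13446, shares 347 of the 8366 bp of Dab2ip exons and had 0, 1 and 0 counts in the WT mice and 27, 10 and 0 in IL-21isoTg mice, few beside the 1034 to 2449 counts of Dab2ip.

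Lrp1 (ENSMUSG00000040249, chromosome 10, 127538161 to 127621148, minus strand), a large scavenger receptor that takes up lipoprotein remnants and protease complexes, had the highest level among the 9 genes. It stood at 120.0, 208.6 and 191.4 CPM in the WT mice and at 268.4, 243.2 and 204.4 CPM in the IL-21isoTg mice. WT mouse 1 was the lowest of the 6, and IL-21isoTg mouse 3 lay below WT mouse 2, so the groups overlapped. The log2 fold change was 0.46 with a standard error of 0.24. Without WT mouse 1 it was 0.27.

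Sorl1 (ENSMUSG00000049313, chromosome 9, 41964720 to 42124297, minus strand), which combines LDL receptor repeats with a VPS10 domain and sorts cargo between endosomes and the Golgi, varied more between mice. Its levels were 72.9, 181.4 and 164.5 CPM in the WT mice and 95.9, 103.2 and 149.0 CPM in the IL-21isoTg mice. The within-genotype SD of log2 CPM was 0.56, at percentile 73.1 of all genes tested, and the log2 fold change of -0.27 had a standard error of 0.34. An antisense transcript, Gm16214, shares 185 of the 11321 bp of Sorl1 exons and had 50 to 156 counts, against 1598 to 3776 for Sorl1.

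Lrp2 (ENSMUSG00000027070, chromosome 2, 69424340 to 69586065, minus strand), which encodes megalin, had 11 counts or fewer in 5 of the 6 libraries. Its counts were 7, 127 and 3 in the WT mice and 10, 11 and 0 in IL-21isoTg mice, and the 0 counts of IL-21isoTg mouse 3 allow a level of up to 0.280 CPM. WT mouse 2 alone stood at 6.10 CPM and carried 93.1% of the summed WT level, so the WT mean describes that mouse. The salivary gland list took 6.72% of the counts in that library, the lowest share of the 3 WT mice. Single genes of the list differed. Amy1 and Bpifa2 were lower in WT mouse 2 than in the other WT mice. Mucl2 had 6718 counts there and 6 to 112 in the other libraries, and Dcpp1, Dcpp2, Dcpp3 and Aqp5 were also highest there. The part of salivary gland tissue in the Lrp2 counts was not tested. Lrp2 did not pass the filter.

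Cubn and Amn, the receptor and membrane anchor that form the cubam complex, which works with megalin, were also low. Cubn (ENSMUSG00000026726) spans chromosome 2, 13276338 to 13491813, minus strand, and Amn (ENSMUSG00000021278) chromosome 12, 111271095 to 111276426, plus strand. Cubn had 4, 7 and 12 counts in the WT mice and 19, 17 and 5 in IL-21isoTg MECs. Its log2 fold change of 0.85 had a standard error of 0.63, and the groups overlapped. Gm13270 on the opposite strand shares 368 of the 14935 bp of Cubn exons and had up to 9 counts, which is not small beside those of Cubn. Amn had 19, 9 and 12 counts in the WT mice and 10, 14 and 1 in IL-21isoTg mice, with a log2 fold change of -0.72 and a standard error of 0.69. Both log2 fold changes were within 2 standard errors of 0.

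Myo6 (ENSMUSG00000033577, chromosome 9, 80165031 to 80311729, plus strand), the motor that Dab2 recruits, differed between the groups by less than its spread between mice. It stood at 45.4, 68.7 and 67.1 CPM in the WT mice and at 60.8, 59.7 and 67.8 CPM in the IL-21isoTg mice. The log2 fold change was 0.06 with a standard error of 0.19, and its sign turned when WT mouse 1 was left out, to -0.10. WT mouse 1 had the lowest level of all 6 mice in Lrp1, Sorl1, Dab2ip and Myo6, and the highest WT level in Dab2. Per length, the Dab2 to Myo6 ratio was 0.83, 0.42 and 0.44 in the WT mice and 1.59, 1.74 and 1.29 in IL-21isoTg MECs, so Dab2 was below Myo6 in every WT mouse and above it in every IL-21isoTg mouse.

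**Figure D2:**
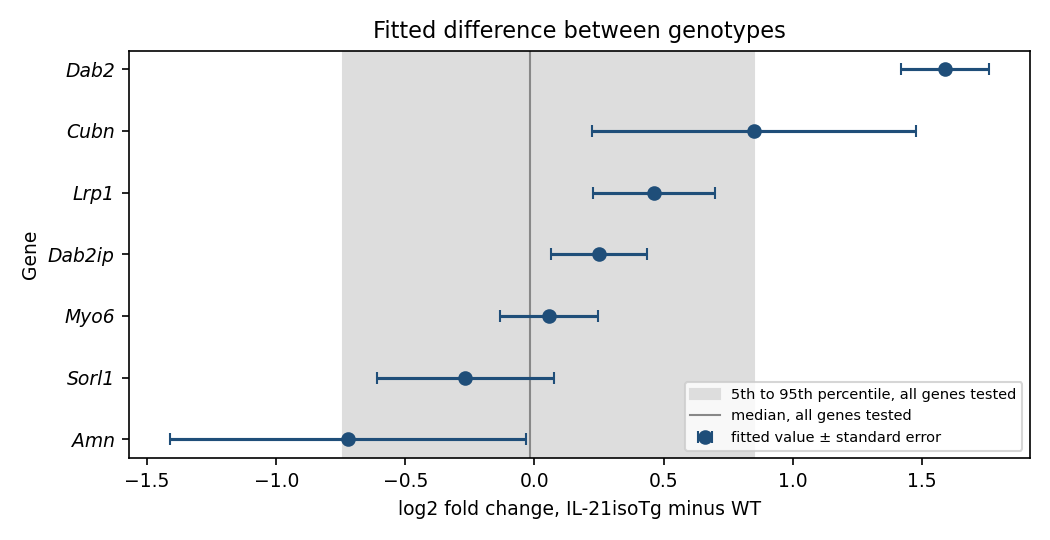
Fitted log2 fold change (IL-21isoTg minus WT) with its standard error for the 7 genes of the set that passed the filter on low counts; the grey band spans the 5th to 95th percentile of all 17165 genes tested (-0.74 to 0.85) and the line their median. Dab2, at 1.59, lies outside the band, Cubn at 0.85 lies at its edge, and the other 5 lie within it.

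Of the 9 genes 7 passed the filter, with 5 log2 fold changes above 0 and 2 below. Their median was 0.25, or 0.15 without Dab2, beside -0.02 for all genes tested. The edgeR quasi-likelihood fit, after Benjamini-Hochberg adjustment, called 0 of the 17165 genes at 0.05 (0%), while 999 genes were under 0.05 before adjustment. The DESeq2 Wald test called 73 of 17076 genes, 0.428%. These are counts over all genes, and no call is read for the 9.

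Divided by exon length, the levels formed a high and a low group. Lrp1 had a mean of 11.6 ± 2.87 CPM per kb (SD, n = 6 mice), Sorl1 11.3 ± 3.81, Dab2ip 9.85 ± 1.57, Dab2 5.30 ± 2.95 and Myo6 5.10 ± 0.727 CPM per kb. Amn followed at 0.259 ± 0.134 CPM per kb, and the levels per kb of Lrp2, Dab1 and Cubn were 0.0736 ± 0.143, 0.0649 ± 0.0544 and 0.0329 ± 0.0144. The step from Myo6 to Amn, 19.7-fold, was the 1 step between neighbours in this order at which the ranges over the 6 mice did not touch. Lrp1 was above Sorl1 in 3 of 6 mice and Sorl1 above Dab2ip in 3, so these neighbours did not differ beyond their spread. The order of Dab2 and Myo6 was split by genotype, with Dab2 the lower in the 3 WT mice and the higher in the 3 IL-21isoTg mice. Dab2ip was above Dab2 in 6 of 6 mice. Without division by length, Dab2 and Myo6 changed places and Amn moved to the last rank.

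The 5 genes nearest to Dab2 in their pattern over the 6 mice were Gda, Mmp25, E230032D23Rik, Lbp and 5830432E09Rik. Nearness was measured as the root mean square difference of log2 CPM after the mean of each gene was removed, and it was 0.22 for Gda and 0.25 to 0.29 for the other 4, where the median over all genes tested was 0.89. Gda, which encodes guanine deaminase, stood at 8.84, 10.5 and 10.0 CPM in the WT mice and at 31.1, 27.2 and 25.3 CPM in the IL-21isoTg mice. Lbp, which encodes a lipopolysaccharide-binding protein of the acute phase, stood at 116.8 to 128.5 and at 237.9 to 267.1 CPM. The other 3 were below 1.3 CPM in every mouse. Within the set, Cubn was nearest at 0.64 (rank 812 of 17165), followed by Lrp1 at 0.67 (rank 1135), Dab2ip at 0.73 (rank 2406) and Myo6 at 0.83 (rank 5908), all nearer than the median gene. Sorl1 at 1.07 and Amn at 1.29 were farther than the median. This order within the set was also the order of the log2 fold changes. Dab2 was chosen on the genotype contrast and its pattern mostly followed genotype, so nothing further is read from nearness. Cubn had only 4 to 19 counts.

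Genes that share work with Dab2 and its partners were counted in 9 lists. The lists held 101 genes, of which 97 were tested, and 0 of the 97 passed an adjusted p of 0.05 in the edgeR fit. An unadjusted p under 0.05 in that fit was found for 6 of the 97, beside 999 of all 17165 genes tested. These shares are close, so nothing is read from the count. Among the 6 were Lpl, Tcn2 and Rasa3 with log2 fold changes above 0, and Eps15 and Snx27 below 0. After adjustment in the edgeR fit these p-values were 0.523 to 0.809. Lrp1b, A2m, Apba2 and Sorcs3 did not pass the filter.

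Other genes of the LDL receptor family lay on both sides of 0. Of 13 genes 12 were tested, with 5 log2 fold changes above 0 and 7 below and a median of -0.07. Lrp10 and Lrp5, the latter a Wnt coreceptor, had the highest levels per length. Lrp10 had 139.8 ± 15.6 CPM in WT and 171.3 ± 12.5 CPM in IL-21isoTg MECs (log2 fold change 0.29 ± 0.16 SE, edgeR adjusted p = 0.809). Lrp6, the closest relative of Lrp5, had the smallest p below 0, with a log2 fold change of -0.26 (± 0.14 SE, edgeR adjusted p = 0.809). Neither Lrp10 nor Lrp6 overlapped between the genotypes, and Lrp5 did. Of all genes tested 12.1% did not overlap, so nothing is read from a lack of overlap here or in the lists below.

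Ligands of these receptors were mostly above 0. Of 11 genes 10 were tested, 8 with a log2 fold change above 0, and the median was 0.34, the highest of the 9 lists. Of the 8, Apoe, Clu and Thbs1 were near 0, at 0.07, 0.06 and 0.04. The median fell in the gap between Apoe and Plat, the latter at 0.60. Without the filter on low counts the median was 0.067, below the 0.17 of the myosin VI cargo adaptors. Lpl, the lipase that releases fatty acids from lipoproteins and binds Lrp1, had 29.7, 54.1 and 57.1 CPM in the WT mice and 181.2, 117.9 and 104.7 CPM in the IL-21isoTg mice. The groups did not overlap, and the log2 fold change was 1.52 (± 0.31 SE, edgeR adjusted p = 0.523). DESeq2's Wald test called Lpl, with an adjusted p of 0.00125, as the 1 gene of the 9 lists. The 6 adipocyte markers summed to 25.8, 68.2 and 28.2 CPM in the WT mice and to 197.1, 100.6 and 30.1 CPM in the IL-21isoTg mice. IL-21isoTg mouse 1 was highest in both, while IL-21isoTg mouse 3 lay inside the WT range of the adipocyte sum and above every WT mouse in Lpl. The part of adipocytes in the Lpl difference was not tested. Tcn2, the carrier of vitamin B12, had a log2 fold change of 0.92 (SE 0.36) and an edgeR adjusted p of 0.809. Ltf and Thbs1, which encode lactoferrin and thrombospondin 1, had the highest levels per length and varied widely, with 759.4 ± 713.0 and 1636 ± 843.9 CPM in WT MECs, 1459 ± 805.6 and 1684 ± 1039 CPM in IL-21isoTg MECs, and log2 fold changes of 0.94 and 0.04. Plau, the urokinase-type protease, had a log2 fold change of -0.20 (SE 0.52).

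The clathrin and AP-2 coat, onto which Dab2 loads its cargo, held no called gene. All 21 genes were tested, 12 with a log2 fold change above 0 and 9 below, with a range of -0.69 to 0.26 and a median of 0.04. Clta, a clathrin light chain, and Epn1, which helps to bend the membrane, had the highest levels per length, with log2 fold changes of 0.15 and 0.13. Ap2a2, an AP-2 subunit, had 0.26 (SE 0.16). Eps15, a scaffold at the rim of the coated pit that Dab2 binds, had 113.7, 89.3 and 76.2 CPM in the WT mice and 57.2, 59.9 and 56.5 CPM in the IL-21isoTg mice. All 3 WT mice were above all 3 IL-21isoTg mice, with a log2 fold change of -0.69 (± 0.18 SE, edgeR adjusted p = 0.774).

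**Figure D3:**
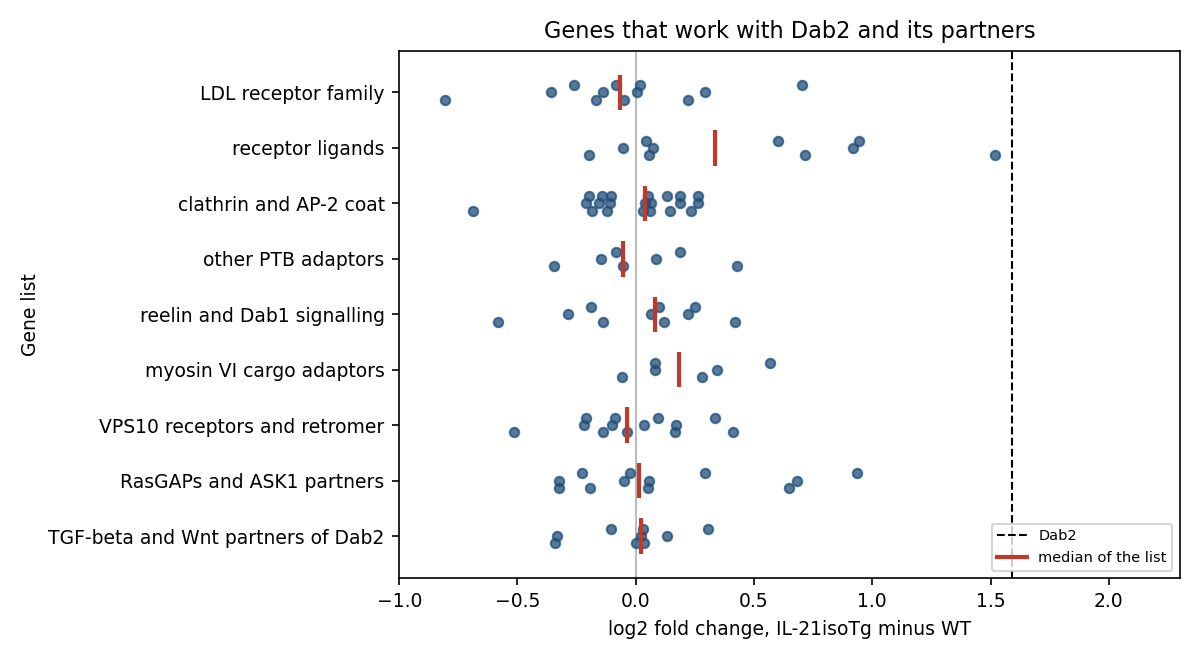
Log2 fold change (IL-21isoTg minus WT) of each tested gene in the 9 lists of genes that work with Dab2 and its partners; each point is 1 gene, red bars are list medians, and the dashed line marks Dab2 at 1.59. List medians lie between -0.07 and 0.34, and Lpl, at 1.52, is the point nearest to the Dab2 line.

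Other adaptors with a PTB domain had 7 of 8 genes tested, 3 above 0 and 4 below, with a median of -0.05. Numb, which acts against Notch, and Shc1, an adaptor of growth factor receptors, were the most abundant per length and had log2 fold changes of 0.09 and -0.05. Numbl and Apbb1 had 0.43 (SE 0.20) and -0.34 (SE 0.33). All 10 genes of reelin and Dab1 signalling were tested, with 6 above 0, 4 below and a median of 0.08. Crk and Pik3r1 were the most abundant per length, with 0.12 and 0.10, and the kinase gene Fyn had 0.42 (SE 0.22) and Crkl -0.29 (SE 0.17).

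The 6 cargo adaptors of myosin VI had 5 log2 fold changes above 0 and 1 below, with a median of 0.18. Gipc1 and Tax1bp1 were the most abundant per length, at 0.08 each, and Tom1l2 and Lmtk2 had 0.35 (SE 0.19) and -0.06 (SE 0.15). For the VPS10 receptors and retromer, which share endosomal sorting with Sorl1, 13 of 14 genes were tested, 6 above 0 and 7 below, with a median of -0.04. App, the amyloid precursor that Sorl1 sorts, and Sort1 were the most abundant per length, with -0.09 and -0.21, and Gga2 had 0.41 (SE 0.31). Snx27, a retromer partner, had 38.5, 32.7 and 28.2 CPM in the WT mice and 18.8, 27.2 and 23.5 CPM in the IL-21isoTg mice, without overlap, and a log2 fold change of -0.52 (± 0.20 SE, edgeR adjusted p = 0.809).

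The Ras GTPase-activating relatives of Dab2ip and its partners in ASK1 signalling had all 12 genes tested, 6 on each side of 0, with a median of 0.01. Rasal1 and Traf2 were the most abundant per length, with log2 fold changes of 0.68 (SE 0.33) and -0.32 (SE 0.28). Rasa3 had 0.65 (± 0.24 SE, edgeR adjusted p = 0.809). Among the TGF-beta and Wnt partners of Dab2, 9 of 9 genes were tested, 6 above 0 and 3 below, with a median of 0.02. Smad4 and Grb2 were the most abundant per length, with 0.13 and -0.10, and Tgfbr1 and Smad2 had 0.30 and -0.33, each with a standard error of 0.19.

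Since Dab2 is also expressed outside epithelium, its counts were set beside those of marker lists in the same libraries. The 9 fibroblast markers summed to 2019, 3541 and 3201 CPM in the WT mice and to 5090, 4417 and 4450 CPM in the IL-21isoTg mice. These groups did not overlap under TMM scaling (exact permutation test, two-sided, p = 0.1, the smallest p possible). Relative to the raw library total they did, at 2008 to 4330 and 3001 to 5151 CPM (exact permutation test, p = 0.4), and the log2 ratio of the sums was 0.39 in place of 0.67. With TMM scaling 7 of the 9 genes had the higher mean in IL-21isoTg MECs, while Dcn and Pdpn had the lower. Most of the sum in every mouse was Col1a1, Col1a2 and Col3a1. Pdgfra overlapped between the genotypes, at 15.8 to 48.5 CPM in WT and 43.7 to 60.4 CPM in IL-21isoTg MECs. Dab2 counts were 0.495% to 1.13% of the fibroblast marker counts in WT MECs and 1.15% to 1.43% in IL-21isoTg MECs, so the groups were still apart but nearly touched, and the log2 ratio of the means was 0.79 in place of 1.59. The part of fibroblasts in the Dab2 difference was not tested.

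The 8 basal epithelial markers summed to 1437 to 1968 CPM in WT and to 1642 to 2969 CPM in IL-21isoTg MECs (exact permutation test, p = 0.2), and 7 of the 8 had the higher mean in IL-21isoTg MECs. Relative to them, Dab2 was at 0.891% to 1.58% in WT and at 1.97% to 3.24% in IL-21isoTg MECs, without overlap. The sums of the 10 luminal markers overlapped between the genotypes, at 6535 to 7544 and 5755 to 9400 CPM (exact permutation test, p = 0.8). Of the 10, 6 had the higher mean in IL-21isoTg MECs. Elf5 (95.8 to 130.7 and 142.1 to 230.5 CPM) and Cd24a (517.3 to 537.6 and 595.7 to 1110 CPM) were higher in IL-21isoTg MECs without overlap. Epcam, Prlr, Esr1 and Pgr had the lower mean in IL-21isoTg MECs, with overlap. Of all genes tested, 12.1% did not overlap, 5.54% with IL-21isoTg higher. Relative to the whole luminal list, Dab2 was at 0.237% to 0.312% in WT and at 0.674% to 1.02% in IL-21isoTg MECs, a log2 ratio of 1.57.

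The 12 macrophage markers summed to 176.7 to 242.7 CPM in WT and to 161.2 to 383.1 CPM in IL-21isoTg MECs (exact permutation test, p = 0.4). Most of that sum was Cd14, at 125.0 to 349.5 CPM, while the defining marker Adgre1, which encodes F4/80, was at 0 to 2.42 CPM and Mrc1 at 0 to 0.933 CPM. Csf1r was at 7.83 to 13.6 CPM, below Dab2 in every mouse. Of the 12 markers, 6 had the higher mean in IL-21isoTg MECs. Mertk stood at 6.72 to 9.99 CPM in WT and at 11.3 to 15.6 CPM in IL-21isoTg MECs, without overlap. C1qa and C1qc were also higher in IL-21isoTg MECs without overlap, at no more than 2.61 CPM. Cd68, Csf1r, Cd163, Fcgr1, C1qb and Lyz2 had the lower mean in IL-21isoTg MECs, with overlap. Since 12.1% of all genes tested did not overlap, nothing is read from single markers of this list. Dab2 was at 7.22% to 12.9% of the macrophage list counts in WT and at 16.5% to 33.0% in IL-21isoTg MECs. For the 9 endothelial and pericyte markers the sums were 159.3 to 365.7 and 215.7 to 447.1 CPM (exact permutation test, p = 0.2), with the mean of all 9 higher in IL-21isoTg MECs. Dab2 relative to this list overlapped between the genotypes, at 4.80% to 14.3% and 13.1% to 24.7%. It also overlapped relative to the adipocyte list, at 25.7% to 88.4% and 29.7% to 176.8% (exact permutation test of the adipocyte sums, p = 0.2). The 8 leukocyte and T cell markers summed to 8.46 to 18.9 and 14.8 to 18.8 CPM (exact permutation test, p = 0.9), less than Dab2 in every IL-21isoTg mouse. No marker on any list was at 0 in all 6 libraries. The part of these cells in the Dab2 difference was not tested.

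**Figure D4:**
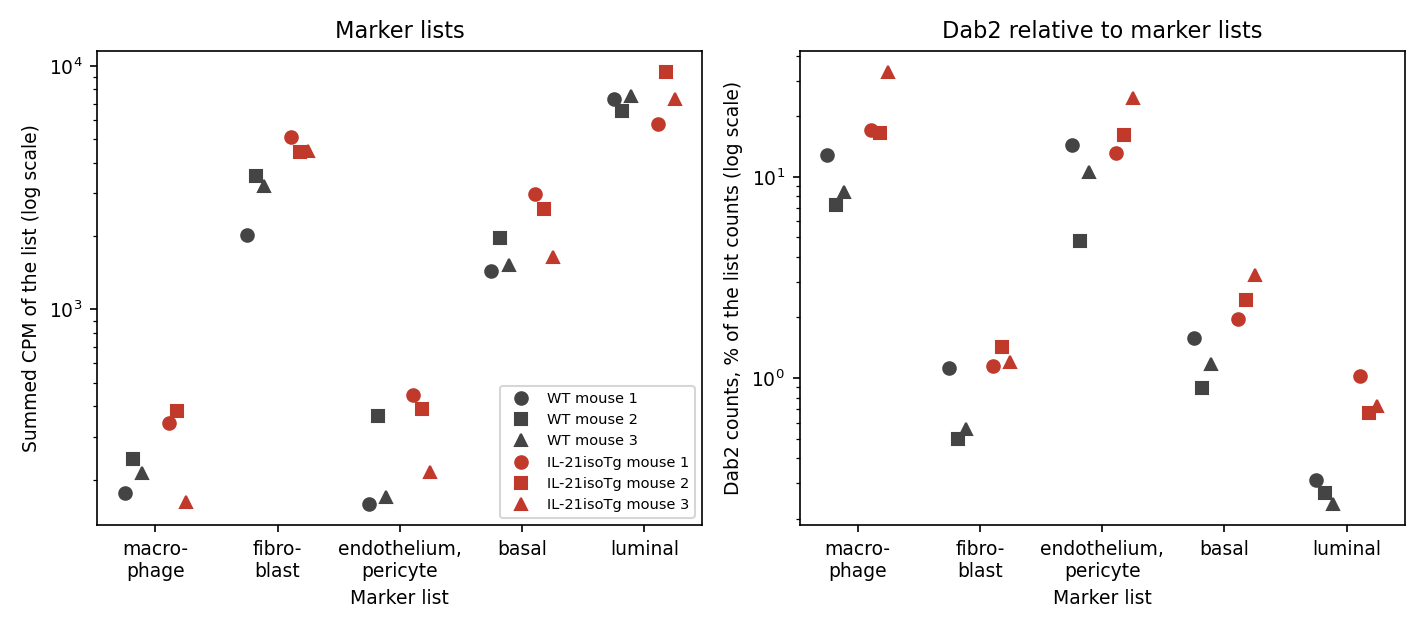
Left, summed CPM of 5 marker lists in each mouse (log axis); right, Dab2 counts as a percent of the counts of each list (log axis), with WT mice in grey and IL-21isoTg mice in red. Fibroblast marker sums stand apart between the genotypes under the TMM scaling drawn here (they overlap relative to the raw library total), and Dab2 relative to the endothelial and pericyte list overlaps, while relative to the luminal list it lies at 0.237% to 0.312% in WT and 0.674% to 1.02% in IL-21isoTg mice.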

How the data were processed

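The authors deposited whole-number counts of reads per gene for 6 mice (WT mice 1 to 3, IL-21isoTg mice 1 to 3), without normalization. The submitters' processing notes name Trimmomatic 0.38, HISAT2 2.1.0, SAMtools 1.9, featureCounts 1.6.3 and DESeq2 1.24.0 on mm10. The libraries were directional, but whether strand was used in counting is not given in the sources used here. A table of the same counts divided by size factors and a table with the authors' fold changes and p-values were not used here.

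Groups came from the sample titles, and the mice are taken as separate animals from these titles. Low counts were removed by filterByExpr of edgeR (at least 10 counts, and at least 15 in total). TMM scaling followed, and genotypes were compared with edgeR 4.0.16's quasi-likelihood test (robust dispersions, genotype as the only term), with Benjamini-Hochberg adjustment over 17165 genes and a threshold of 0.05. DESeq2 1.42.0, R 4.3.3 and Python 3.11.15 were also used. The fit was also run on simulated counts. The changes there were larger than that of Dab2, every gene had the same dispersion, and the salivary gland share was not made to vary. That run therefore does not bear on smaller changes in libraries like these. Log2 CPM used a prior count of 2. Positions and exon lengths came from GENCODE M21 (GRCm38), which held 55141 of 55487 identifiers, and promoter windows from RefSeq (GRCm38.p6). Marker lists were compared by exact two-sided permutation tests over mice.

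Named genes are the 9 of the set, and from each of 9 lists the 2 with the highest level per length and those with the smallest p in each direction, the 5 genes nearest to Dab2, and genes whose exons overlap the set. Tcn2, the untested list genes and single marker genes were named after their values were seen. Some genes that this rule names are not reported here. The set and all lists were chosen with earlier results of these data known. Gm18888, a pseudogene on the opposite strand of Dab2, shares 211 of its 7342 exon bp and had 0 counts.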

Additional observations from a re-analysis of the deposited data

How the results depend on the processing

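The Dab2 log2 fold change stayed between 1.52 and 1.73 with each mouse left out, and at 1.58 to 1.62 with DESeq2, DESeq2's size factors, no filter, the replicate block and salivary gland genes removed. Counted against marker lists, an alternative chosen after seeing the data, it was 1.22 (macrophage), 1.29 (leukocyte and T cell), 0.79 (fibroblast), 0.87 (endothelium and pericyte), 0.60 (adipocyte), 1.07 (basal), 1.57 (luminal) and 1.74 (salivary gland). The groups overlapped relative to the endothelial, adipocyte and salivary gland lists. For the salivary gland list they ran from 0.00985% to 0.0319% in WT and from 0.00874% to 0.148% in IL-21isoTg MECs, with IL-21isoTg mouse 3 below every WT mouse. Over all genes, 0 were called higher and 0 lower by edgeR, with 63 and 10 by DESeq2 and 14 and 0 without a filter. Leaving out a mouse gave 0 to 6 higher, the 6 without WT mouse 3, and 0 lower. With each mouse left out, log2 fold changes ran from 0.27 to 0.62 for Lrp1, 0.11 to 0.34 for Dab2ip, -0.10 to 0.16 for Myo6, -0.56 to -0.034 for Sorl1, 0.55 to 1.29 for Cubn and -1.11 to -0.37 for Amn. The ligand list median moved from 0.34 to 0.067 without a filter, where A2m entered, and to 0.29 to 0.57 with a mouse left out, and DESeq2 called 1 of its genes. The VPS10 and retromer median was -0.070 without a filter and -0.076 to 0.060 with a mouse left out, and that of the clathrin coat -0.052 to 0.12. The cause was not tested. On the raw library total, the fibroblast log2 ratio was 0.39 (0.67 with TMM) and the groups overlapped, and the log2 ratios of the leukocyte and luminal sums reversed to -0.073 and -0.15. The sign changed in 13 of 99 recomputed list medians, of the LDL receptor family, clathrin coat, PTB adaptor, VPS10, Ras and TGF-beta lists, and in 1 of 85 values of the set, Myo6 without WT mouse 1.

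The replicate block left 0 genes called and a Dab2 log2 fold change of 1.595. The sample titles do not say whether same-numbered mice share more than a number. Their deviations correlated at -0.22, 0.07 and -0.06 over genes, and those of other pairs at -0.23 to 0.23. Deviations sum to 0 within each genotype, so these values cannot decide whether the mice were paired. Dab1, Lrp2, Cubn and Amn had the fewest counts of the set.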
